A study of Zea mays with 4 samples.

Results

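HMGIY2, MNB1B and EZ1 are 3 maize genes for chromatin proteins, 2 of them for high mobility group (HMG) proteins and 1 for a Polycomb protein. They were taken from the deposited count table by exact ID, 3 of 22525 IDs. The rule uses no measured value, but it was drawn up with earlier results of these data known. The RNA was extracted from entire V3 seedlings of Zea mays, with shoot and root ground up as one, from greenhouse plants. The groups are A188xB73, an F1 hybrid that also bears the name HiII in the labels, with 2 libraries, and the B73 inbred, with 2 libraries. In each genotype the libraries carry the codes RPI10 and RPI11. No label says that they came from separate plants, so p-values measure only the spread between these libraries, which may be technical. Libraries followed a form of CEL-Seq2, a method that primes on the poly(A) tail and counts transcripts near the 3′ end with unique molecular identifiers.

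HMG proteins are small, abundant nuclear proteins that bind DNA with little sequence preference and bend or open it. HMGIY2 belongs to the HMGA (HMG-I/Y) class, whose AT-hooks hold the minor groove of AT-rich DNA. MNB1B belongs to the HMGB class, whose HMG box bends DNA. EZ1 is a homologue of Drosophila Enhancer of zeste, the catalytic subunit of Polycomb repressive complex 2, which methylates histone H3 at a lysine of its tail and keeps genes silent. In plants this complex also holds a WD40 protein of the FIE type, and it acts in development and in the timing of flowering.

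Total counts were 1341976 and 883812 in the hybrid libraries (RPI10 and RPI11) and 275271 and 403858 in the B73 libraries, so the hybrid libraries held more counts. A single count was worth 0.745 and 1.13 CPM of the total in the hybrid libraries and 3.63 and 2.48 CPM in the B73 libraries. TMM factors (trimmed mean of M-values, which scale a library by the bulk of its IDs) were 0.761 and 0.795 in the hybrid and 1.31 and 1.27 in B73. CPM below is relative to the total times this factor unless the total alone is named. Of 26 leaf and 18 root markers listed, 3 of each were in the table. For the leaf markers, CAB1, FDX2 and RCA1, the summed level was 2260 and 1784 CPM in the hybrid and 523 and 520 CPM in B73. The root markers, NIP2-1, PIP2-5 and GLU1, summed to 17.6 and 25.6 CPM in the hybrid and 22.3 and 62.6 CPM in B73, with GLU1 at 0 in 3 libraries and at 1 count in the hybrid RPI11 library. CAB1 (log2 fold change 2.05, edgeR adjusted p = 0.00123) and FDX2 (2.84, edgeR adjusted p = 0.000309) were called higher in the hybrid and NIP2-1 (-1.88, edgeR adjusted p = 0.0238) lower. NIP2-1 had 7 and 10 counts in the hybrid and 5 and 29 in B73, where its mean was 35.3 ± 30.3 CPM (SD, n = 2). It passed the filter on low counts in both libraries of B73 only, so its call is no support for a difference. RCA1 was not called (0.72, edgeR adjusted p = 0.161), and PIP2-5, which was not tested, averaged 10.4 ± 0.565 CPM in the hybrid and 7.11 ± 1.75 CPM in B73 (SD, n = 2 each). The part of leaf and root content in the results below was not tested. In such bulk samples, fewer cells that express a gene and less of its RNA per cell cannot be told apart. Reads of both genotypes were aligned to a B73 build, whereas the hybrid also carries A188 alleles. What this did to the hybrid counts was not tested.

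Both HMG genes were lower in hybrid than in B73 seedlings in the edgeR fit, a call that DESeq2 did not make for either. HMGIY2 stood at 41.7% of its B73 level and MNB1B at 50.0%. EZ1 stood at 61.7%, and its difference did not pass the test. All 3 lay lower in both hybrid libraries than in both B73 libraries. Of all 3282 IDs tested, 25.4% were called lower in the hybrid and 40.2% had both hybrid libraries below both B73 libraries (54.7% when scaled by library totals). These shares are over IDs that passed the filter on low counts, 1425 of them through the B73 libraries alone and 523 through the hybrid libraries alone.

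HMGIY2, the AT-hook gene, had 22 and 29 counts in the hybrid libraries (RPI10 and RPI11) and 21 and 45 counts in the B73 libraries. Scaled by TMM these were 21.5 and 41.3 CPM in the hybrid, against 58.4 and 88.02 CPM in B73. The groups did not overlap, and the lowest B73 library was 1.42 times the highest hybrid library. The libraries of a genotype were less close than for the other 2 genes, 1.92-fold apart in the hybrid and 1.51-fold in B73, with RPI10 the lower in both. The mean was 31.4 ± 14.0 CPM in the hybrid and 73.2 ± 20.9 CPM in B73 (SD, n = 2 each). The fitted log2 fold change was -1.26 (SE 0.45, 95% interval -2.23 to -0.30, edgeR adjusted p = 0.0314). The level in the hybrid was thus 41.7% of that in B73, with an interval from 21.3% to 81.3%. Within RPI10 the log2 ratio of hybrid to B73 was -1.44, and within RPI11 it was -1.09.

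The call for HMGIY2 rested on 2 libraries: without the hybrid RPI10 library its log2 fold change was -0.69 (edgeR adjusted p = 0.268), and without the B73 RPI11 library it was -0.97 (edgeR adjusted p = 0.269). It was also not called by DESeq2 (-1.02, DESeq2 adjusted p = 0.369), nor by edgeR without a filter on low counts (-0.96, edgeR adjusted p = 0.222), where 3.64% of 22374 IDs were called lower.

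MNB1B, the HMG-box gene, had 124 and 89 counts in the hybrid libraries (RPI10 and RPI11) and 78 and 142 counts in the B73 libraries. It had the most counts of the 3 and hence the least counting error. Scaled by TMM it stood at 121 and 127 CPM in the hybrid, against 217 and 278 CPM in B73. The hybrid libraries were nearly equal, the B73 libraries were 1.28-fold apart, and the lowest B73 library was 1.71 times the highest hybrid library. The mean was 124 ± 3.79 CPM in the hybrid and 247 ± 42.9 CPM in B73 (SD, n = 2 each). The log2 fold change was -1.0 (SE 0.37, 95% interval -1.80 to -0.20, edgeR adjusted p = 0.0390), which put the hybrid at 50.0% of B73 with an interval from 28.7% to 87.3%. The log2 ratio of hybrid to B73 was -0.84 within RPI10 and -1.13 within RPI11.

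The adjusted p of MNB1B lay close to the threshold. It was 0.0508 when DESeq2 size factors replaced TMM in edgeR (log2 fold change -0.94), 0.435 in edgeR without a filter (-0.69) and 0.292 in DESeq2 (-0.77). Leaving out any 1 of the 4 libraries ended the call, with edgeR adjusted p of 0.152 without hybrid RPI10, 0.130 without hybrid RPI11, 0.113 without B73 RPI10 and 0.293 without B73 RPI11, and log2 fold changes from -1.16 to -0.81. MNB1B has relatives with a similar HMG box, and the sources used here do not say how reads shared by near-identical copies were counted.

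EZ1, the Polycomb gene, had 11 and 6 counts in the hybrid libraries (RPI10 and RPI11) and 5 and 9 counts in the B73 libraries. Scaled by TMM these were 10.8 and 8.54 CPM in the hybrid, against 13.9 and 17.6 CPM in B73. The groups did not overlap, but the lowest B73 library was only 1.29 times the highest hybrid library, which is close to the spread within genotypes (1.26-fold in each). The mean was 9.65 ± 1.57 CPM in the hybrid and 15.8 ± 2.61 CPM in B73 (SD, n = 2 each). The log2 fold change was -0.70 (SE 0.47, edgeR adjusted p = 0.255), and its 95% interval ran from -1.71 to 0.32. The hybrid level was therefore between 30.6% and 125% of that in B73, and a difference was not detectable at this depth.

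EZ1 entered the test only through the B73 libraries. The filter asked for about 15.5 CPM of the total in 2 libraries, and EZ1 had 18.2 and 22.3 CPM of the total in B73 but 8.20 and 6.79 in the hybrid. HMGIY2 and MNB1B were among the 1147 IDs that passed through both genotypes.

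**Figure D1:**
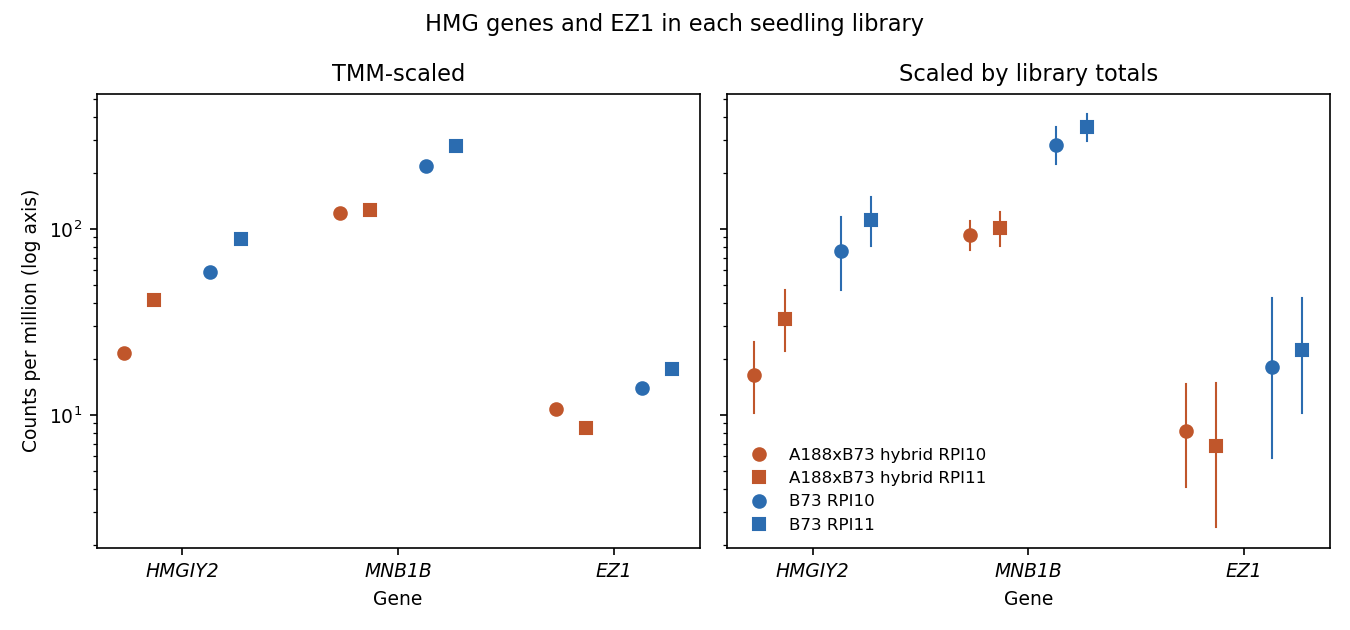
CPM (log axis) of each gene in each of the 4 libraries, scaled by TMM (left) and by library totals (right), with hybrid libraries in orange and B73 libraries in blue; bars on the right are 95% exact binomial intervals for counting error. Both hybrid libraries lie below both B73 libraries for all 3 genes, with the narrowest gap for EZ1 (1.29-fold after TMM).

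The size of the difference depended on how the libraries were scaled. Relative to the library totals, MNB1B had 92.4 CPM (exact Clopper-Pearson 95% interval 76.9 to 110) and 101 CPM (80.9 to 124) in the hybrid, against 283 CPM (224 to 354) and 352 CPM (296 to 414) in B73. HMGIY2 had 16.4 CPM (10.3 to 24.8) and 32.8 CPM (22.0 to 47.1) in the hybrid, against 76.3 CPM (47.2 to 117) and 111 CPM (81.3 to 149) in B73. For both HMG genes no hybrid interval reached a B73 interval, whereas those of EZ1 overlapped, with 4.09 to 14.7 and 2.49 to 14.8 CPM in the hybrid and 5.90 to 42.4 and 10.2 to 42.3 CPM in B73. These intervals cover counting error only. For HMGIY2 they nearly met, with the highest hybrid end at 47.1 CPM and the lowest B73 end at 47.2 CPM. Of all 3282 IDs tested, 54.7% had both hybrid libraries below both B73 libraries in this scaling. The share of all IDs with separate intervals was not computed.

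With library totals in the edgeR fit the log2 fold change was -1.98 for HMGIY2 (adjusted p = 0.00180), -1.72 for MNB1B (adjusted p = 0.00158) and -1.41 for EZ1 (adjusted p = 0.0214). The first 2 had passed the filter in both genotypes, whereas EZ1 had passed it only through B73, where it is high, so its call there is no support for a difference. In that scaling 41.3% of IDs were called lower and 14.7% higher, against 25.4% and 25.3% with TMM, and the median of all IDs tested moved to -0.76, against -0.04 with TMM. A change of scaling shifts all IDs by nearly the same amount, so log2 fold changes set against that median hardly differ by construction. They were -1.22 with totals and -1.22 with TMM for HMGIY2, -0.96 and -0.96 for MNB1B, and -0.66 and -0.66 for EZ1. The call of EZ1 under library totals thus came with a shift of the median ID of the same size.

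At equal depth both HMG genes were again lower in the hybrid. When each library was drawn at random to 275271 counts, HMGIY2 had 5 and 10 counts in the hybrid and 21 and 32 in B73, and MNB1B had 28 and 28 in the hybrid and 78 and 95 in B73. Both were called in edgeR, HMGIY2 at -1.63 (adjusted p = 0.0404) and MNB1B at -1.45 (adjusted p = 0.0172), where 28.7% of 1446 IDs were called lower and the median log2 fold change of all IDs was -0.25. At this depth HMGIY2 reached the filter's minimum count of 10 in both B73 libraries but not in both hybrid libraries. Its call at equal depth is therefore no support for a difference. EZ1 had 2 and 2 counts in the hybrid and 5 and 5 in B73, and was not tested there.

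**Figure D2:**
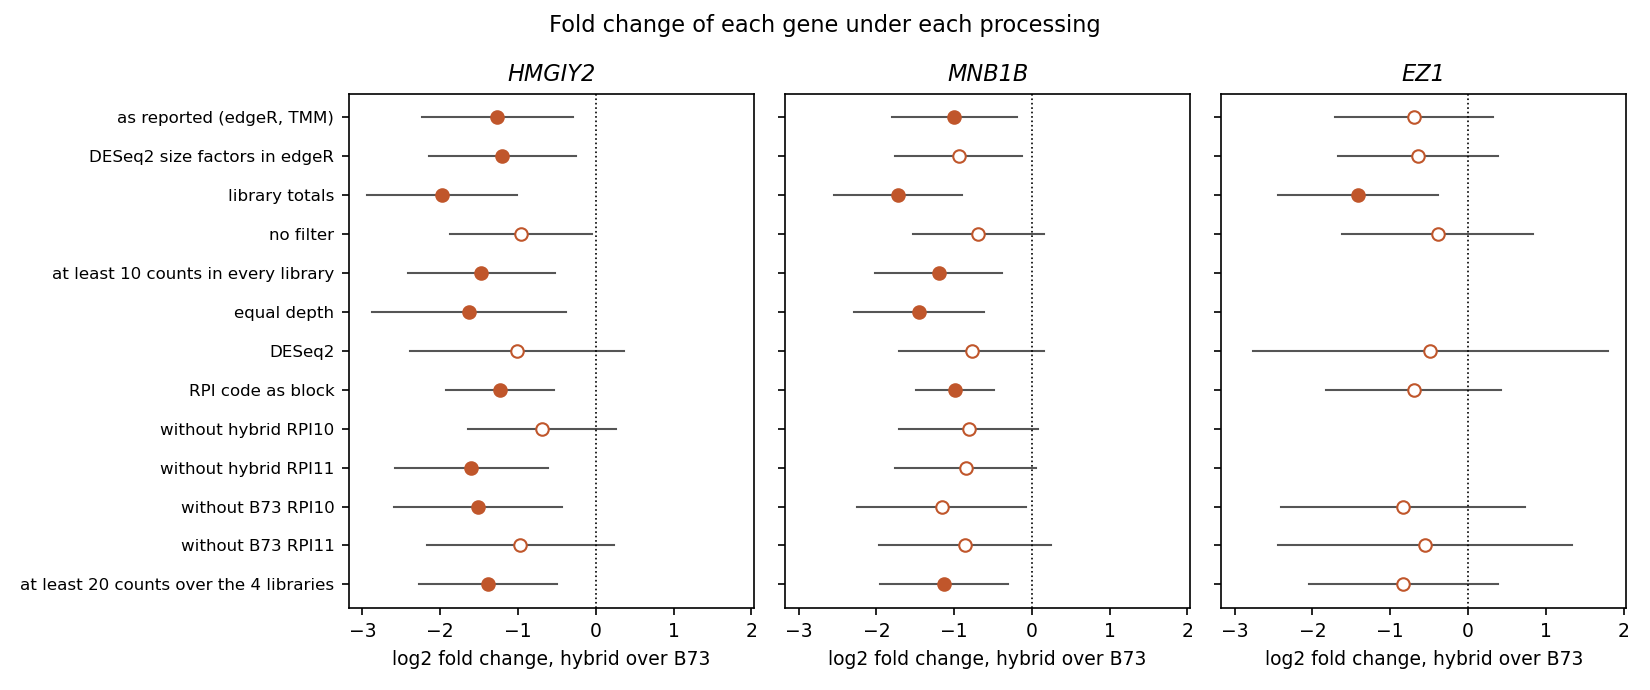
Log2 fold change of hybrid over B73 for each gene under each processing, with 95% intervals; filled points passed an adjusted p under 0.05, open points did not, and a missing point means that the gene was removed by the filter. All values lie below 0, and 8 of 12 alternatives for HMGIY2, 5 of 12 for MNB1B and 1 of 8 for EZ1 passed the threshold. These include the filter of at least 20 counts, chosen after seeing the data. They also include the calls of HMGIY2 at equal depth and without hybrid RPI11, and of EZ1 with library totals. In those fits the gene passed the filter only through B73, so these calls are no support for a difference.

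Among all IDs the 3 genes lay on the low side but not at its end. Of the 3282 IDs tested, 24.9% had a lower log2 fold change than HMGIY2, 29.1% a lower one than MNB1B and 35.4% a lower one than EZ1. These shares depended on the filter. With at least 10 counts in every library they were 9.69% for HMGIY2 and 13.4% for MNB1B, of 970 IDs. Without a filter they were 30.5% and 32.6%, of 22374 IDs. The place of the genes within a library, which needs no scaling, differed in the same direction for the HMG genes. MNB1B was outranked in count by few IDs, at rank 397 and 358 in the hybrid libraries and at rank 150 and 115 in the B73 libraries. HMGIY2 stood at rank 1874 and 984 in the hybrid and at rank 522 and 345 in B73. EZ1 stood at rank 3410 and 4125 in the hybrid and at rank 2890 and 2242 in B73, where many IDs share the same few counts. The number of IDs detected also differed between libraries. Of the detected IDs, 77.7% and 69.4% in the hybrid and 73.9% and 83.6% in B73 had a lower count than EZ1, so the genotypes overlapped.

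**Figure D3:**
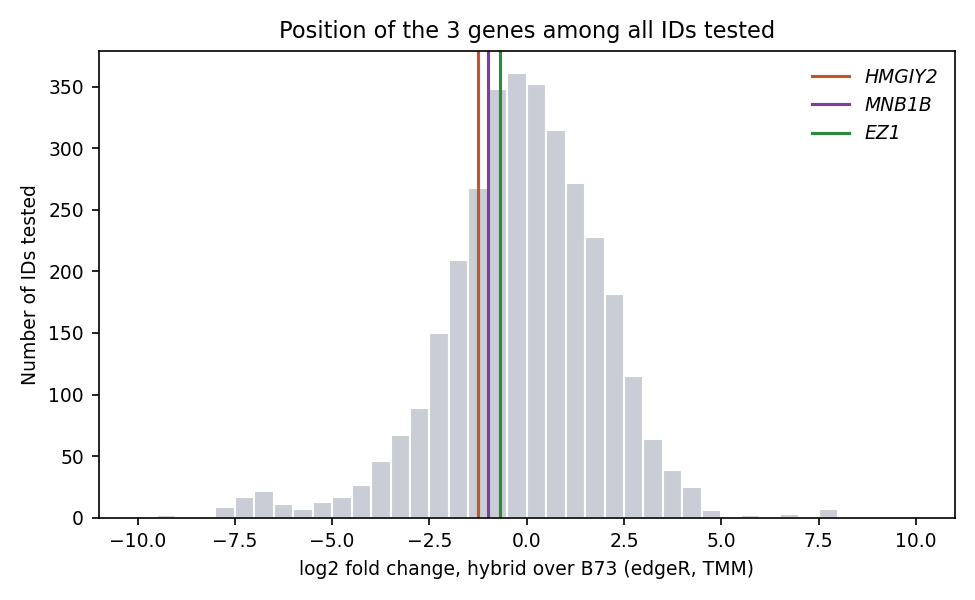
Histogram of log2 fold changes of hybrid over B73 for the 3282 IDs tested, in bins of 0.5, with a line at each gene. The lines stand at -1.26 (HMGIY2), -1.0 (MNB1B) and -0.70 (EZ1), in the left shoulder of the distribution, whose median is -0.04.

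Ratios between the genes within a library cancel the scaling. They were compared between genotypes with an exact permutation test only, which cannot go below p = 0.33 with 2 libraries against 2. They are not read as an order of abundance between the genes. The log2 ratio of HMGIY2 to MNB1B was -2.47 and -1.60 in the hybrid and -1.87 and -1.65 in B73, and the hybrid libraries lay on either side of the B73 libraries. The mean difference, hybrid minus B73, was -0.28 (exact two-sided permutation p = 1), and it was 0.16 without the hybrid RPI10 library. As a share of the counts of both HMG genes, HMGIY2 made up 15.1% (exact Clopper-Pearson 95% interval 9.69 to 21.9) and 24.6% (17.1 to 33.4) in the hybrid, against 21.2% (13.6 to 30.6) and 24.1% (18.1 to 30.8) in B73. All 4 intervals overlap.

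The log2 ratio of EZ1 to MNB1B was -3.44 and -3.78 in the hybrid and -3.84 and -3.91 in B73. Both hybrid values were above both B73 values, by a mean of 0.26 (exact two-sided permutation p = 0.33, the smallest possible). The log2 ratio of EZ1 to HMGIY2 was -0.97 and -2.18 in the hybrid and -1.97 and -2.26 in B73, so the hybrid RPI11 library lay between the B73 libraries. Its mean difference was 0.54 (exact two-sided permutation p = 0.667), and it was -0.07 without the hybrid RPI10 library.

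**Figure D4:**
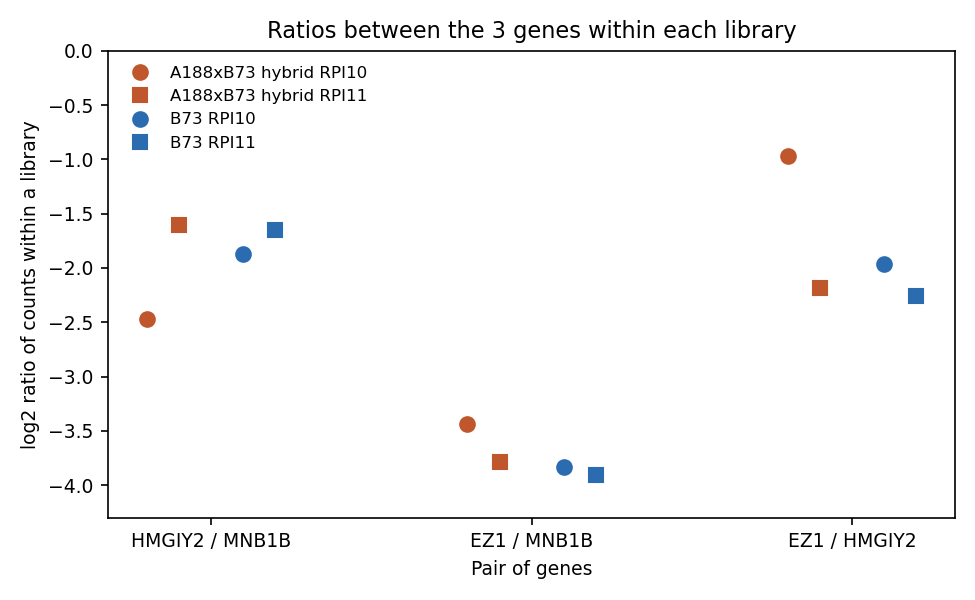
Log2 ratio of the counts of each pair of genes (0.5 added to each) within each library, hybrid in orange and B73 in blue, circles for RPI10 and squares for RPI11. The hybrid RPI10 library stands apart in both ratios that hold HMGIY2, at -2.47 against MNB1B and at -0.97 for EZ1 against HMGIY2.

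Other chromatin genes could be followed only in part, since most IDs in the table carry no gene name. Of 124 symbols listed for HMG, Polycomb, histone, histone deacetylase and DNA methylation genes, 6 were in the table: the 3 genes above, FIE1, FIE2 and DMT105. Only the 3 genes above were tested, so the list adds no test of another chromatin gene. Of the 3, 0 were called higher and 2 lower, with a median log2 fold change of -1.0, beside 25.3% called higher, 25.4% called lower and a median of -0.04 over all IDs tested.

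FIE1 and FIE2 encode the WD40 partners of Enhancer of zeste proteins. FIE1, which is known for its expression in endosperm, had 1 and 0 counts in the hybrid libraries and 0 in both B73 libraries. FIE2 had 1 and 1 counts in the hybrid and 0 and 0 in B73. Both lay under a floor of 3 counts in every library, so no fold is given for the partners of EZ1. DMT105, a chromomethylase that methylates cytosine outside CG sites, had 4 and 5 counts in the hybrid and 4 and 8 in B73 (5.52 ± 2.27 CPM in the hybrid and 13.4 ± 3.19 CPM in B73, SD, n = 2 each). It was not tested after the filter. With a filter of at least 20 counts over the 4 libraries, chosen after seeing the data, its log2 fold change was -1.48 (edgeR adjusted p = 0.111), and under that filter HMGIY2 (-1.39, edgeR adjusted p = 0.0118) and MNB1B (-1.13, edgeR adjusted p = 0.0273) were called and EZ1 (-0.83, edgeR adjusted p = 0.298) was not. There, 15.2% of 5278 IDs were called lower.

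The single myb histone genes SMH1 to SMH5, whose proteins join a myb domain to a part like linker histone, were added after the table had been seen. None of the 5 passed the filter. Their summed level was 16.6 and 24.2 CPM in the hybrid and 27.8 and 15.6 CPM in B73, so the genotypes overlapped. In edgeR without a filter, 0 of the 5 had an adjusted or an unadjusted p under 0.05.

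HMG and Polycomb genes are usually high in dividing cells. Of 36 symbols listed for such cells, 3 were in the table, CDC2, PCNA and RBR3, and none was tested. CDC2 and PCNA each had 1 count in the hybrid RPI11 library and 0 in the other libraries, and RBR3 had 1 count in the B73 RPI10 library and 0 elsewhere. These defining markers were at or near 0 in all 4 libraries, so they give no measure of dividing cells here.

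The gene symbols with the most similar profiles were named over 4 libraries, by the distance between mean-centred log2 values, where a small distance means the same pattern over the libraries. For HMGIY2 they were BIPE2, a BiP chaperone of the endoplasmic reticulum (distance 0.417), and TUBA6, an alpha tubulin (0.463), beside a median of 2.32 over 89 symbols. For MNB1B they were HMT-3, a homocysteine methyltransferase (0.402), and EZ1 (0.417), beside a median of 2.02. For EZ1 they were HMT-3 (0.215) and RPS4, a ribosomal protein (0.374), beside a median of 1.80. MNB1B and HMGIY2 were 0.671 apart, and EZ1 and HMGIY2 were 1.05 apart. Of these neighbours BIPE2 was called lower in the hybrid (log2 fold change -1.49, edgeR adjusted p = 0.0165), whereas TUBA6 (-0.88, edgeR adjusted p = 0.138), HMT-3 (-0.78, edgeR adjusted p = 0.179) and RPS4 (-0.83, edgeR adjusted p = 0.123) were not. These distances rest on 4 libraries in 2 genotypes, and those of EZ1 on 5 to 11 counts a library. BIPE2 had 12 and 14 counts in the hybrid libraries and 15 and 23 in the B73 libraries. Like TUBA6 and HMT-3, it passed the filter in both libraries of B73 only. The neighbours were also picked by their profiles in these same libraries, so the call of BIPE2 is no support for a difference.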

How the data were processed

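The deposited values are raw counts, given by the authors as whole numbers for each gene or locus, with a column for each of the 4 libraries. Per the submitters' processing notes, CASAVA 1.4, HISAT2 and UMI-tools were used with the build B73 RefGen_v4. The counting tool, the annotation and the use of strand are not given in the sources used here. Each column was assigned to the sample whose title carries the same RPI code and genotype.

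The whole table of 22525 IDs was analysed with edgeR 4.0.16 (R 4.3.3). The filter was filterByExpr at a minimum count of 10, scaling was by TMM, and the quasi-likelihood test (glmQLFit, glmQLFTest) set hybrid against B73 over the 4 libraries. Benjamini-Hochberg adjustment ran over all 3282 IDs tested, and calls were made at 0.05. Standard errors were derived from the log2 fold change and the F statistic. DESeq2 1.42.0 and other scalings, filters and depths were alternatives, as were the RPI code as a block and each library left out. A filter of at least 20 counts over the 4 libraries, the share of HMGIY2 in the counts of both HMG genes, and the list of SMH genes were chosen after seeing the data. Fits were tested on simulated data. The rule for genes named beside the 3 studied took the tested members of a list of chromatin genes and of a list of genes of dividing cells, which held no further tested gene, and for each of the 3 the 2 tested gene symbols with the smallest Euclidean distance between mean-centred profiles of log2(TMM CPM + 1). Members of these lists that were in the table but not tested are named outside the rule, after their values were seen, and leaf and root markers are named as a check of the tissue. The genes and lists were chosen with earlier results of these data known.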

Additional observations from a re-analysis of the deposited data

How the results depend on the processing

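HMGIY2 and MNB1B were lower in the hybrid in all 12 alternatives each, and EZ1 in all 8 that kept it. All of these refit the same 4 libraries, whole or in part, so they are not separate evidence of the direction. They include the filter of at least 20 counts over the 4 libraries, chosen after seeing the data. Log2 fold changes ran from -1.98 to -0.69 (HMGIY2), -1.72 to -0.69 (MNB1B) and -1.41 to -0.39 (EZ1). HMGIY2 lost its call without a filter (-0.96) and in DESeq2 (-1.02), and MNB1B with DESeq2 size factors in edgeR (-0.94), without a filter (-0.69) and in DESeq2 (-0.77). EZ1 gained a call with library totals (-1.41). Leaving out each library in turn gave -1.60 to -0.69 for HMGIY2, -1.16 to -0.81 for MNB1B and -0.84 to -0.55 for EZ1, which the filter removed when a hybrid library was left out. A lone library was then assumed to vary like the other genotype. The value of -1.60 came without hybrid RPI11, where HMGIY2 passed the filter only through B73. EZ1 was also removed at equal depth and by 10 counts in every library. Its 5 to 11 counts a library limit its interval. The cause of the lost calls in DESeq2 was not tested.

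With the code as a replicate block, log2 fold changes were -1.24 for HMGIY2 (edgeR adjusted p = 0.00349), -0.99 for MNB1B (0.00166) and -0.70 for EZ1 (0.275), which changed no call of the 3, and 1870 IDs were called. Across IDs, the deviations of libraries that share a code correlated at 0.248. No label says that the codes pair the libraries.

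Over all IDs, against 1662 calls (829 higher, 833 lower), library totals gave 482 higher and 1357 lower, no filter gave 1353 higher, and 10 counts in every library gave 401 (220 and 181) of 970 tested. Equal depth gave 723 (308 and 415) of 1446, DESeq2 756 (551 and 205), and a threshold of 0.01 gave 1104 (546 lower). Leaving out a library gave 842 to 1318 calls, 529 to 822 higher and 313 to 496 lower. Without B73 RPI11 there were 842. Of the chromatin list, 3 were lower with library totals (median -1.72), 1 with DESeq2 size factors and 0 of 6 without a filter, where edgeR gave 1 (HMGIY2) an unadjusted p under 0.05. The difference in the log2 ratio of EZ1 to MNB1B was 0.47 at equal depth. There EZ1 had 2 and 2 counts in the hybrid, under the floor of 3 counts, so this value is not interpreted. Leaving out each library gave -0.71 to 0.16 for HMGIY2 to MNB1B, 0.09 to 0.43 for EZ1 to MNB1B and -0.07 to 1.15 for EZ1 to HMGIY2.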
